A study of Mus musculus with 6 samples.

Results

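The nuclear-encoded subunits of the respiratory chain were compared between wild-type and Eda-/- mice in the lacrimal gland. Members were the protein-coding genes whose symbols start with Nduf (complex I), Sdh followed by a, b, c or d (complex II), Uqcr or Cyc1 (complex III), Cox followed by 4 to 8 (complex IV) or Atp5 (complex V). The rule found 98 genes among the 50686 identifiers of the count table. Of these, 86 were counted as subunits by symbol: 38 in complex I, 4 in complex II, 9 in complex III, 18 in complex IV and 17 in complex V. The other 12, with 8 Ndufaf and 4 Sdhaf symbols, encode assembly factors and were kept apart. Enough counts for a test were present for 78 subunits and for all 12 assembly factors.

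The lacrimal gland is the exocrine gland that makes the watery layer of the tear film. The gene affected, Eda, codes for ectodysplasin A, which signals through the receptor Edar while hair follicles, teeth and many glands form. The 6 samples were total RNA of adult glands taken at 13 weeks of age: 3 wild-type (titled Blacky) and 3 Eda-/- (titled Tabby), all with the strain label C57BL/6. Each group held 3 biological replicates, and the labels name no treatment. The Tabby line lacks the ligand throughout the body and throughout development, and the labels give neither sex nor litter. Library totals ran from 11894395 to 15700899 counts. Wild-type libraries held 41, 48 and 42 counts of Eda itself, and Eda-/- libraries held 2, 0 and 0.

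The respiratory chain sits in the inner mitochondrial membrane. Complex I takes electrons from NADH and complex II takes them from succinate, and both pass them to ubiquinone. Complex III hands them to cytochrome c, complex IV hands them to oxygen, and complex V (ATP synthase) uses the proton gradient that complexes I, III and IV build to make ATP. Most subunits are encoded in the nucleus and a few in the mitochondrial genome, so that each complex other than complex II is assembled from the products of both. Acinar cells, which make up most of a lacrimal gland, use ATP for protein synthesis, secretion and ion transport.

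Most subunits lay a little higher in Eda-/- glands. Levels are CPM, counts of a gene relative to the total of its library after scaling by edgeR's TMM method, and fold changes are Eda-/- over wild-type on the log2 scale with their standard error (SE). A gene was called when the Benjamini-Hochberg adjusted p of edgeR's quasi-likelihood test over all 13178 tested genes was under 0.05. Of the 78 tested subunits, 12 rose and 1 fell, against a background of 6.21% of all tested genes called higher and 6.9% called lower. The fold change was above 0 for 73 subunits and below 0 for 5. Its median over the subunits was 0.19, with the middle of the list from 0.11 to 0.27, while the median over all tested genes was 0.00. In 38 subunits all 3 Eda-/- libraries were above all 3 wild-type libraries, where 15.9% of all tested genes were so placed. In 2 subunits, Ndufc2 and Uqcrb, all 3 were below, against 16.2% of all tested genes. An unadjusted p under 0.05 in the higher direction was reached by 35 subunits, against 13.3% of all tested genes. Genes measured in the same 6 libraries are not independent, so these counts describe the list and are not a test of it.

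**Figure D1:**
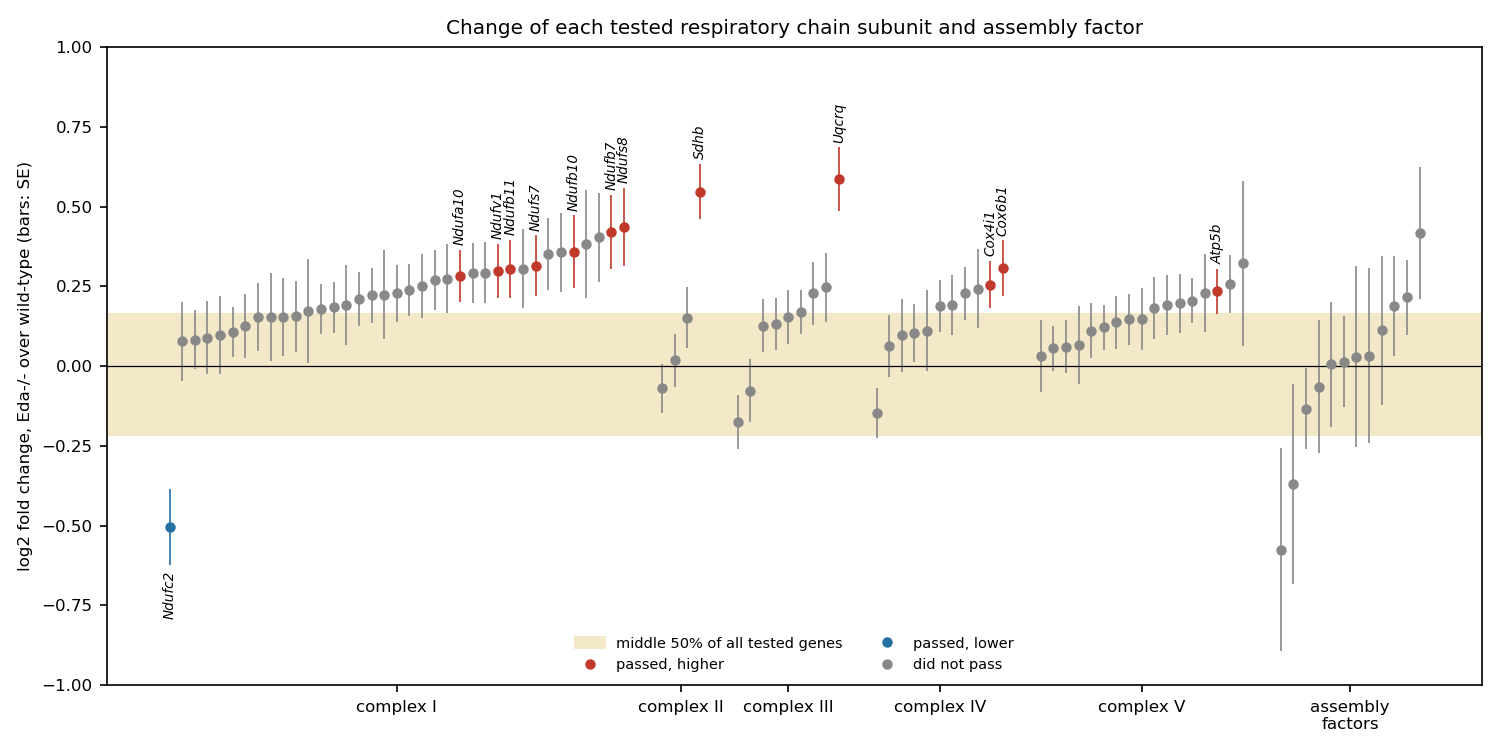
Log2 fold change (Eda-/- over wild-type, y axis) of each tested member, grouped by complex and ordered by size within it; points are edgeR estimates, bars are SE, red and blue mark the members that passed and the band spans the middle 50% of all 13178 tested genes (-0.22 to 0.16). Most subunits sit above 0, Sdhb and Uqcrq stand highest, Ndufc2 lowest, and the 12 assembly factors lie on both sides of 0.

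Summed over all subunits, the level was 2425, 2394 and 2419 CPM in wild-type and 2819, 2690 and 2656 CPM in the Eda-/- libraries. The means were 2412 ± 16.6 (SD, n = 3) and 2722 ± 86.0 (SD, n = 3), and the groups did not overlap. These levels are relative to the bulk of genes. As a plain share of all counts, the subunits took 0.261%, 0.259% and 0.276% of the wild-type libraries and 0.264%, 0.241% and 0.235% of the Eda-/- libraries, and there the groups overlapped. TMM factors were 1.08 to 1.14 in wild-type and 0.887 to 0.937 in the Eda-/- libraries. When libraries were scaled by their totals instead, the median over all tested genes moved to -0.28 and that over the subunits to -0.09, with 18 of 78 subunits above 0, 2 called higher and 7 called lower. The distance between the 2 medians was 0.19 under both scalings. Every direction below is therefore relative to the other genes, and the absolute amount of respiratory chain RNA per gland was not measured.

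Promoter sequence was read for the subunits, since many are known to carry sites for NRF1, for ETS factors such as GABP and for YY1. RefSeq windows (GRCm38.p6) of 250 bases before the start were found for 67 of 86 subunits and for 11 of the 13 that passed. The words searched, on both strands, were GCATGCGC for NRF1, CCGGAAG for ETS factors and AAGATGGC for YY1. The words differ, and their ends share up to 3 letters. The NRF1 word was present in 11.8% of the 68 windows of tested subunits and in 2.26% of all 32851 windows. The ETS word was present in 17.6% and 6.91%, and the YY1 word in 1.47% and 1.56%. Among the 10 rising subunits with a window, 1 held the NRF1 word, 2 the ETS word and 0 the YY1 word, and among the 57 windows of subunits that did not pass these were in 7, 10 and 1. A word is a match of letters and not a shown binding site.

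The bases before Sdhb, the rise with the smallest p, and Ndufc2, the only fall, are shown for contrast, each up to the first base that either annotation transcribes, 5′ to 3′ on the gene's strand. They span chr4:140961021-140961202 and chr7:97399753-97400002. Neither stretch holds any of the words. The Sdhb stretch stops 68 bases before the RefSeq start, where the gene begins in GENCODE, and its NRF1 word lies in those 68 bases. All the words found near rising subunits lie past the GENCODE start of their gene. The 3 words found near rising subunits lie closer to the RefSeq start and are given with their flanks, the word in capitals: at chr4:140961206-140961235 for Sdhb (NRF1 word, 54 bases before the start), at chr8:83566727-83566756 for Ndufb7 (ETS word, 20 bases before) and at chr7:30626124-30626153 for Cox6b1 (ETS word on the opposite strand, 28 bases before).
Sdhb, before the start: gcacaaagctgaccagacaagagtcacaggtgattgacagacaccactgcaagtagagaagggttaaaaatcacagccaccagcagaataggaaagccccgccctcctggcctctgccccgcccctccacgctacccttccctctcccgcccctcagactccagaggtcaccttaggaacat
Ndufc2, before the start: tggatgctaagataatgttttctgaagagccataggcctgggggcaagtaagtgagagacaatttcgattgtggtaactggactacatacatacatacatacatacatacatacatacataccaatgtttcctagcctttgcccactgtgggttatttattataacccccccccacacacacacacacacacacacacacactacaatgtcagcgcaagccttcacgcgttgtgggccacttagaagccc
Sdhb, NRF1 word: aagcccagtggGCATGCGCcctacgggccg
Ndufb7, ETS word: gcctagatgacCCGGAAGacactgaagggg
Cox6b1, ETS word: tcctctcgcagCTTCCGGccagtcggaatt

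Sdhb was the subunit with the smallest p. It encodes the iron-sulfur subunit of complex II, which carries electrons from the flavin of Sdha to the ubiquinone site. The gene lies on chromosome 4 at 140961203-140979193 (GRCm38, plus strand). Its level was 39.3, 37.2 and 36.3 CPM in wild-type and 60.4, 49.0 and 55.4 CPM in the Eda-/- libraries. All 3 Eda-/- values were above all 3 wild-type values. The fold change was 0.55 (SE 0.09, edgeR adjusted p = 0.000594), a ratio of 1.46. It passed in each of the 18 processing alternatives, including library totals and each library left out in turn.

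The other subunits of complex II gave no such call. Sdha, the flavoprotein that oxidises succinate, had 99.6, 87.0 and 87.4 CPM in wild-type and 87.3, 89.9 and 83.7 CPM in Eda-/- glands, and the groups overlapped. Its fold change was -0.07 (SE 0.08, edgeR adjusted p = 0.601). Sdhc and Sdhd, the membrane anchors that hold the ubiquinone site, had fold changes of 0.02 (SE 0.08) and 0.15 (SE 0.09) with edgeR adjusted p = 0.916 and 0.329. Of the counts of complex II, Sdhb took 21.7%, 22.2% and 21.8% in wild-type and 31.1%, 26.4% and 30.5% in the Eda-/- libraries. Sdha took 54.9%, 51.8% and 52.6%, and 45.0%, 48.5% and 46.1%. Such shares do not depend on how libraries are scaled. For the share of Sdhb the groups did not overlap, with a two-sided exact permutation p = 0.1, the smallest that 3 libraries against 3 can give. The shares of the 4 genes add up to the whole, so a larger share of Sdhb by itself lowers that of Sdha, whose own level overlapped between the groups. Complexes I to V had 37, 4, 9, 11 and 17 tested subunits. In each complex 1 subunit had all 3 Eda-/- shares above the wild-type shares, and 2, 1, 2, 1 and 1 had all 3 below. Shares of this kind were not computed for other genes, so no background stands beside these counts. They are a description and not a result about the subunits. Levels of Sdhb, Uqcrq, Uqcrb and Ndufc2 had already separated in the same libraries, so their shares are no separate support. No 31-base word of Sdhb or Sdha occurs in a gene elsewhere in the annotation.

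**Figure D2:**
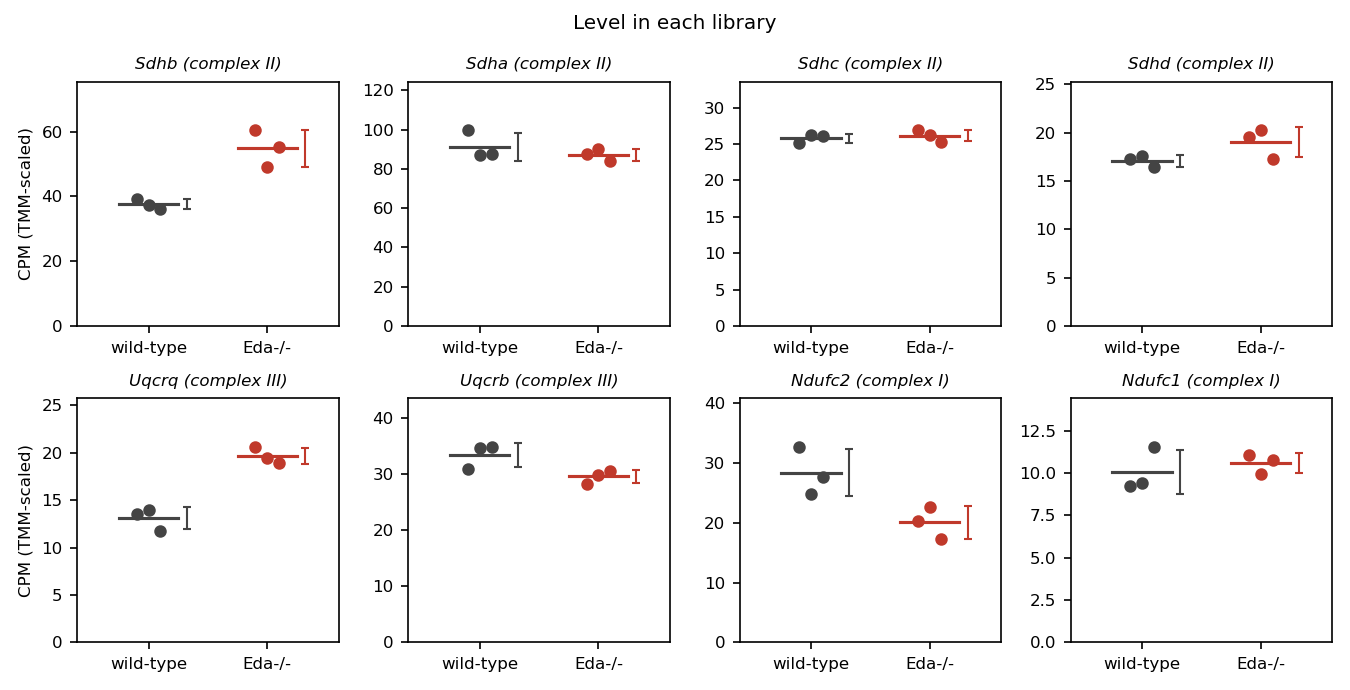
Level in CPM (TMM-scaled, linear axis from 0) of 8 subunits in each library; dots are libraries, horizontal lines group means and brackets ± SD, with wild-type in grey and Eda-/- in red. The 3 Eda-/- dots lie above all wild-type dots for Sdhb and Uqcrq and below them for Ndufc2 and Uqcrb, and the groups overlap for Sdha, Sdhc and Ndufc1; for Sdhd the lowest Eda-/- value, 17.3, lies within the wild-type range of 16.4 to 17.6.

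Within complex III, Uqcrq moved most. It encodes a small accessory subunit next to cytochrome b and lies on chromosome 11 at 53427922-53430831 (GRCm38, minus strand). Its level was 13.5, 13.9 and 11.8 CPM in wild-type and 20.6, 19.4 and 18.9 CPM in the Eda-/- libraries, with no overlap. The fold change was 0.59 (SE 0.10, edgeR adjusted p = 0.00113), a ratio of 1.5, and it passed in all 18 alternatives. It shares no 31-base word with a gene elsewhere.

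Uqcrb, another accessory subunit beside cytochrome b, pointed the other way. It had 31, 34.6 and 34.9 CPM in wild-type and 28.3, 29.9 and 30.6 CPM in Eda-/- glands. All 3 Eda-/- values were below all 3 wild-type values, but the fold change of -0.18 (SE 0.08) did not pass (edgeR adjusted p = 0.188). In Uqcrb, 32.4% of the 31-base words also occur in genes elsewhere, all of them pseudogenes, so its counts are uncertain. Within the counts of complex III, Uqcrq took 4.81%, 4.91% and 4.17% in wild-type and 6.32%, 6.32% and 6.33% in Eda-/- libraries, and Uqcrb took 11%, 12.2% and 12.4%, and 8.68%, 9.74% and 10.2%. The groups did not overlap for either gene. For each the two-sided exact permutation p = 0.1 was the smallest possible. Of the 9 subunits of complex III, 1 passed, a share of 11.1% that rests on 1 gene, where 6.21% of all tested genes were called higher. The median fold change was 0.15. The electron-carrying subunits Cyc1 (cytochrome c1) and Uqcrfs1 (the Rieske iron-sulfur protein) had fold changes of 0.25 (SE 0.11) and 0.13 (SE 0.08), and neither passed.

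**Figure D3:**
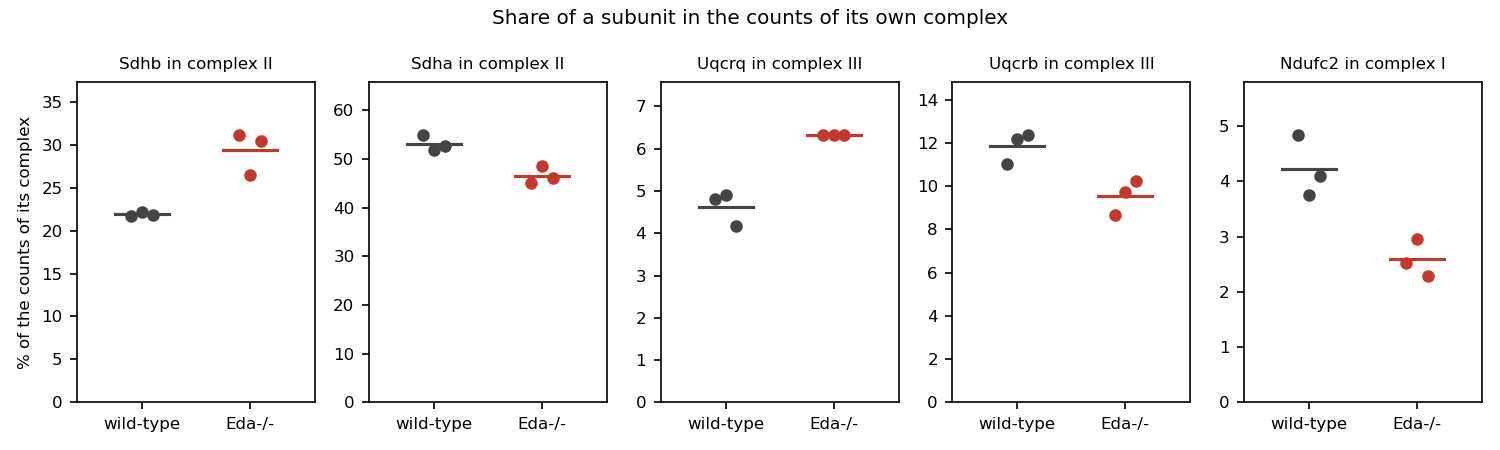
Share of a subunit in the counts of its own complex (%, linear axis from 0) in each library; dots are libraries and lines are group means, with wild-type in grey and Eda-/- in red. Sdhb and Uqcrq take a larger share in all 3 Eda-/- libraries, and Sdha, Uqcrb and Ndufc2 a smaller one.

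Complex I, the largest with 37 of the 78 tested subunits, held most of the calls. Of its 37 tested subunits 7 rose (18.9%) and 1 fell, where 6.21% of all tested genes were called higher and 6.9% lower. In this complex 36 had a fold change above 0, and the median was 0.23. In 22 of the 37 all 3 Eda-/- libraries were above all 3 wild-type libraries, against 15.9% of all tested genes. Complex I has a peripheral arm, which oxidises NADH and reduces ubiquinone, and a membrane arm, which pumps protons. In the peripheral arm 3 of 16 subunits rose, with a median fold change of 0.21. In the membrane arm 4 of 19 rose and 1 fell, with a median of 0.27. The 7 nuclear-encoded core subunits, which bind the flavin and the iron-sulfur clusters or form the ubiquinone site, all had fold changes above 0, from 0.08 to 0.44.

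Core subunits of the peripheral arm that rose were Ndufs8, Ndufs7 and Ndufv1. Ndufs8 carries the iron-sulfur clusters that lead towards the ubiquinone site. It had 9.48, 9.06 and 10.8 CPM in wild-type and 15.0, 11.7 and 12.9 CPM in Eda-/- glands, with a fold change of 0.44 (SE 0.12, edgeR adjusted p = 0.0286). Ndufs7 holds the last cluster before ubiquinone. It had 13.6, 14.2 and 15.3 CPM in wild-type and 18.6, 17.6 and 17.3 CPM in Eda-/- glands, with a fold change of 0.31 (SE 0.10, edgeR adjusted p = 0.0405). Ndufv1 binds the flavin that accepts electrons from NADH. It had 36.7, 33.8 and 39.0 CPM in wild-type and 48.5, 43.4 and 42.6 CPM in Eda-/- glands, with a fold change of 0.30 (SE 0.09, edgeR adjusted p = 0.0314). For all 3 genes the groups did not overlap. Ndufs1, Ndufs3 and Ndufv2, core subunits of the same arm, had fold changes of 0.11, 0.08 and 0.18 and did not pass.

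Accessory subunits of the membrane arm that rose were Ndufb7, Ndufb10, Ndufb11 and Ndufa10. Ndufb7 had 12.5, 9.94 and 11.2 CPM in wild-type and 16.2, 13.5 and 15.1 CPM in Eda-/- glands, a fold change of 0.42 (SE 0.12, edgeR adjusted p = 0.0262). Ndufb10 had 12.9, 11.7 and 10.3 CPM against 16.2, 14.3 and 14.1 CPM, a fold change of 0.36 (SE 0.11, edgeR adjusted p = 0.0495). These are small proteins of the part of the membrane arm farthest from the peripheral arm. Ndufb11, an X-linked member of the same arm, had 22.7, 26.1 and 25.5 CPM against 33.1, 29.8 and 28.8 CPM, a fold change of 0.30 (SE 0.09, edgeR adjusted p = 0.0387). Its reads can be shared, since 19.1% of its 31-base words occur in a gene elsewhere. Ndufa10, a nucleoside kinase-like subunit on the matrix side, had 30.4, 33.8 and 31.4 CPM against 40.7, 37.2 and 38.5 CPM, a fold change of 0.28 (SE 0.08, edgeR adjusted p = 0.0324). In each of these 4 genes the Eda-/- libraries were all above the wild-type libraries.

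Ndufc2 was the only subunit called lower. It encodes an accessory subunit of the membrane arm and lies on chromosome 7 at 97400003-97407802 (GRCm38, plus strand). Its level was 32.7, 24.8 and 27.6 CPM in wild-type and 20.3, 22.6 and 17.2 CPM in the Eda-/- libraries, and the groups did not overlap. The fold change was -0.50 (SE 0.12, edgeR adjusted p = 0.0128), a ratio of 0.705. Ndufc1, its companion in the same arm, had a fold change of 0.08 (SE 0.12) and overlapping groups. Within the counts of complex I, Ndufc2 took 4.84%, 3.75% and 4.09% in wild-type and 2.53%, 2.96% and 2.28% in Eda-/- libraries, with the smallest possible two-sided exact permutation p = 0.1. The call was lost without wild-type replicate 1 (edgeR adjusted p = 0.0525), Eda-/- replicate 1 (0.0644) or Eda-/- replicate 3 (0.0643), and held in the other 15 of 18 alternatives. Over the leave-one-out fits its fold change ran from -0.59 to -0.38. A processed pseudogene, Gm16053, lies inside the gene on the same strand and had 0 to 6 counts a library. The stretch before the start of Ndufc2, printed with that of Sdhb, held none of the promoter words. No 31-base word of Ndufc2 occurs in a gene elsewhere.

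In complex IV, 2 of 11 tested subunits rose, where 6.21% of all tested genes did, and the median fold change was 0.19. Cox4i1, the widely expressed form of a regulatory subunit, had 61.5, 58.4 and 54.6 CPM in wild-type and 70.6, 68.0 and 69.6 CPM in Eda-/- glands, a fold change of 0.26 (SE 0.07, edgeR adjusted p = 0.0326). Cox6b1, which bridges the monomers of the enzyme on the intermembrane side, had 23.0, 23.8 and 26.5 CPM against 29.9, 29.1 and 31.5 CPM, a fold change of 0.31 (SE 0.09, edgeR adjusted p = 0.0311). For both genes the groups did not overlap. The lowest fold change of the complex was that of Cox7a2l, a factor that links complexes III and IV, at -0.15 (SE 0.08, edgeR adjusted p = 0.242). It passed in the lower direction only with library totals and with the trend on GC content and length removed, without or with the replicate block.

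Several subunits of complex IV come in tissue forms, and the lacrimal glands held almost only the widely expressed ones. The muscle and heart forms Cox6a2, Cox7a1 and Cox8b, the lung and hypoxia-linked Cox4i2, the testis forms Cox6b2, Cox7b2 and Cox8c, and Ndufa4l2 had between 0 and 4 counts in every library and were not tested. Their widely expressed counterparts had wild-type means of 15.6 CPM (Cox6a1), 28.0 CPM (Cox7a2), 27.5 CPM (Cox8a), 58.2 CPM (Cox4i1) and 24.4 CPM (Cox6b1). Skeletal muscle markers were low as well, with 10 genes that summed to 1.0 to 2.31 CPM in wild-type and 0.468 to 1.14 CPM in Eda-/- glands. Cox6a1, Cox7a2 and Cox8a had fold changes of 0.11, 0.19 and 0.24, and none passed. Ndufa4, which is counted by its symbol with complex I and whose protein is found with complex IV, had 29.4, 27.8 and 33.2 CPM against 35.8, 34.5 and 35 CPM. Its groups did not overlap, and its fold change was 0.22 (SE 0.09, edgeR adjusted p = 0.109).

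In complex V, 1 of 17 subunits rose, a share of 5.88% that is near the background, although all 17 fold changes were above 0. The median was 0.15. Atp5b, the catalytic beta subunit and the most abundant of all subunits, had 322, 320 and 324 CPM in wild-type and 388, 374 and 373 CPM in Eda-/- glands, without overlap. Its fold change was 0.23 (SE 0.07, edgeR adjusted p = 0.0409), and the call was lost when any of the 6 libraries was left out (edgeR adjusted p = 0.0726 to 0.109). Atp5a1, the alpha subunit that alternates with beta in the catalytic head, had 232, 231 and 228 CPM against 274, 260 and 264 CPM, with no overlap and a fold change of 0.21 (SE 0.07) that did not pass (edgeR adjusted p = 0.0676). In the head (F1) 1 of 5 subunits rose, and among the 11 of the stalks and the membrane part (Fo) none did by edgeR's adjusted p, with 1 at an unadjusted p under 0.05 and 0 called by DESeq2 or limma-voom. The c subunit of the rotor ring is encoded by Atp5g1, Atp5g2 and Atp5g3, whose fold changes were 0.19, 0.23 and 0.06, and none passed. The largest fold change of the complex, 0.32 for Atp5s (SE 0.26), and the smallest, 0.03 for Atp5l (SE 0.11), did not pass either. Atp5s encodes factor B, which is not a core subunit, and was counted here by its symbol. Apart from Atp5s, the largest fold change was 0.26 for Atp5o (SE 0.09, edgeR adjusted p = 0.0767).

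Sdhb and Uqcrq were the calls that held in all 18 alternatives. The other 10 rising subunits passed in 5 to 12 of the 18 alternatives and kept a fold change of 0.22 to 0.52 in every leave-one-out fit. With 1 library left out, Ndufv1 and Cox6b1 passed in 3 of 6 fits, Ndufs8, Ndufb7 and Ndufa10 in 2, Ndufs7, Ndufb10, Ndufb11 and Cox4i1 in 1 and Atp5b in 0. The number of rising subunits was 6 without wild-type replicate 1, 3 without wild-type replicate 2, 9 without wild-type replicate 3, 3 without Eda-/- replicate 1, 11 without Eda-/- replicate 2 and 6 without Eda-/- replicate 3. The median fold change stayed between 0.17 and 0.21 in these fits. DESeq2 called 4 subunits higher, namely Sdhb, Uqcrq, Atp5b and Atp5a1, and none of complex I. The share of all genes that DESeq2 called higher is not given beside this count.

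**Figure D4:**
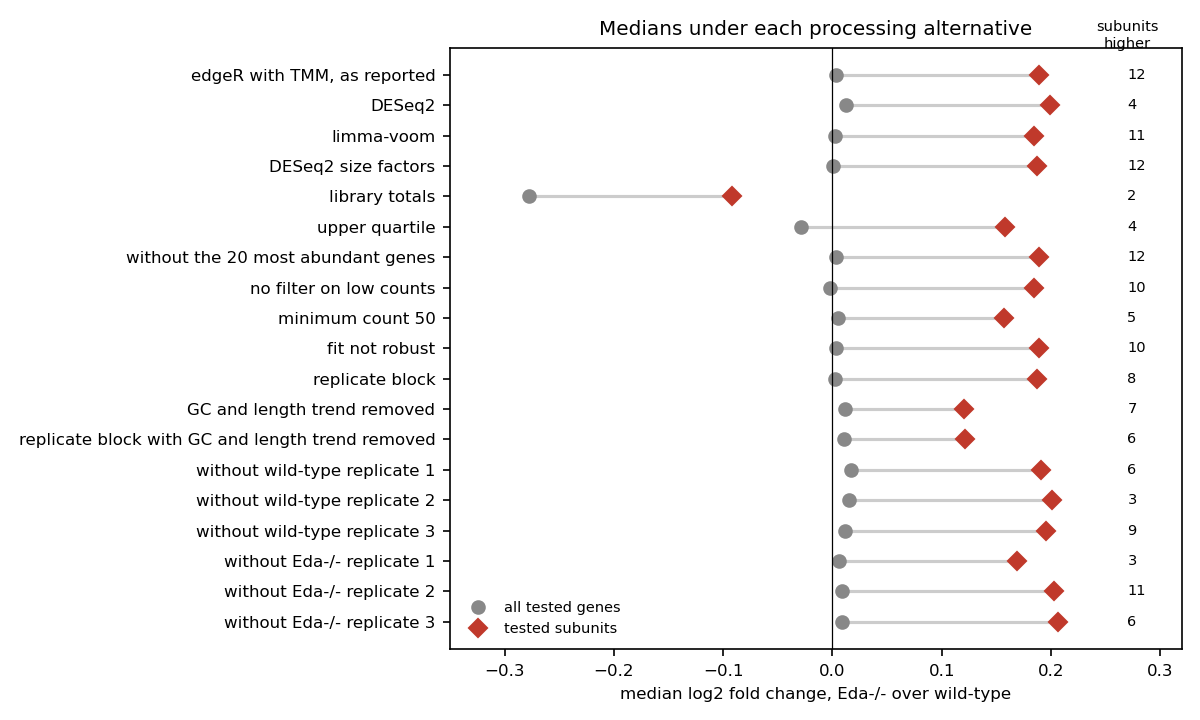
Median log2 fold change (x axis) of the 78 tested subunits (red diamonds; 77 with a minimum count of 50) and of the genes tested in the reported fit (grey circles) under the reported fit and each of 18 alternatives, with the number of subunits called higher at the right. Subunits lie to the right of all genes in every setting, by 0.11 to 0.20; with library totals both medians are below 0.

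Base composition differed between the rising subunits and the rest. The 12 rising subunits had a median exonic GC content of 53.5% and the other 66 tested subunits of 49.2%. Across the 78 subunits, which share the same 6 libraries, Spearman's correlation of GC content with fold change was 0.30, and across 13153 tested genes it was 0.09. Subunits were also short, with a median exonic length of 1737 bases against 4317 over all tested genes. With the trend of each library on GC content and length removed, 7 subunits were called higher, Ndufc2 and Cox7a2l were called lower, the median fold change was 0.12 against 0.01 for all genes, and 66 of 78 subunits were above 0. Those called higher were Sdhb, Uqcrq, Ndufb7, Ndufv1, Ndufa10, Atp5b and Atp5f1. The shares of all genes called in that fit are not given beside these counts.

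Levels per kilobase of the shortest principal transcript gave the order of the tested subunits within each complex. In wild-type glands the highest were Ndufa4 (66.7 CPM per kb), Sdhb (32.9), Uqcrb (62.6), Cox4i1 (78.1) and Atp5b (168), from complex I to complex V. The lowest tested members were Ndufb4 (4.38 CPM per kb), Sdhc (8.15), Cyc1 (13.1), Cox5b (20.3) and Atp5s (1.47), which is not a core subunit. Sdha was close behind Sdhb in wild-type glands at 31.5 CPM per kb. In Eda-/- glands Sdhb reached 48.1 CPM per kb and Sdha 29.99, and Uqcrb was again the highest of complex III with 55.3.

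Assembly factors, which help to build the complexes and are not part of them, had no call. Of the 12 that the rule found, edgeR called 0 at an adjusted p under 0.05 and 0 at an unadjusted p under 0.05. DESeq2 and limma-voom called 0 as well. Over all tested genes, edgeR called 6.21% higher and 6.9% lower at an adjusted p under 0.05. Having 0 such calls in 12 genes does not set them apart from that background. The median fold change of the 12 was 0.02, with 8 above 0 and 4 below. Fold changes ran from -0.58 for Ndufaf5 (SE 0.32) to 0.42 for Ndufaf3 (SE 0.21). Their summed level was 50.01, 54.3 and 51.7 CPM in wild-type and 55.0, 52.8 and 53.9 CPM in Eda-/- glands, and the groups overlapped. Wild-type means of the 12 ran from 1.63 CPM (Ndufaf2) to 11.2 CPM (Ndufaf4), and SE from 0.12 (Ndufaf4) to 0.32 (Ndufaf5). Small changes could therefore go uncalled. In Ndufaf2, 65.1% of the exon words also occur in a gene elsewhere, so its counts are uncertain. Whether the assembly factors differed from the subunits was not tested.

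Among 44 further tested assembly factors of the complexes, 4 rose and 0 fell (1 listed gene had no row and 1 had too few counts), with a median fold change of 0.07. The share that rose is near the 6.21% of all tested genes called higher. Uqcc2, which stabilises newly made cytochrome b of complex III, had 5.30, 5.59 and 5.33 CPM in wild-type and 8.29, 7.78 and 7.95 CPM in Eda-/- glands. Its fold change was 0.57 (SE 0.13, edgeR adjusted p = 0.0112), and it passed in all 6 leave-one-out fits. Cox10, which acts in haem synthesis for complex IV, rose by 0.60 (SE 0.17, edgeR adjusted p = 0.0274). Cox18, which inserts a core subunit of that complex, rose by 0.68 (SE 0.18, edgeR adjusted p = 0.0226). Ecsit, which acts in complex I assembly and also in innate immune signalling, rose by 0.43 (SE 0.13, edgeR adjusted p = 0.0473). These 3 passed in 2 or 3 of the 6 leave-one-out fits. limma-voom called 3 of the 44 and DESeq2 called 0.

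No mitochondrially encoded subunit passed. Of the 13 genes 7 were tested, and edgeR called 0 of them, with 0 at an unadjusted p under 0.05. DESeq2 and limma-voom called 0 as well. The median fold change was 0.05, with a range from -0.05 to 0.11. Over all tested genes, edgeR called 6.21% higher and 6.9% lower. Having 0 calls in 7 genes does not set them apart from that background. The most counted of them, mt-Co1, encodes the catalytic subunit of complex IV and had 1409 ± 65.8 CPM in wild-type and 1497 ± 170.3 CPM in Eda-/- glands (SD, n = 3 each). The summed level was 1857, 1883 and 2089 CPM in wild-type and 1806, 2148 and 2145 CPM in Eda-/- glands. mt-Co2, mt-Atp6, mt-Atp8 and mt-Nd4l had 0 counts in all 6 libraries, and mt-Co3 had 0 or 1. Counts of mt-Nd3 were 6, 4 and 6 in wild-type and 0, 1 and 0 in the Eda-/- libraries, too few to test. Of the 31-base words of these low-count genes, between 98.1% (mt-Nd3) and 100% (mt-Co2) also occur in genes elsewhere, except for mt-Atp8 with 7.5%. Shared words did not go with low counts in every gene: mt-Co1 with 63.9% shared had 14901 to 23690 counts, mt-Nd4 with 62.8% had 717 to 1156, and mt-Nd1 with none had 1028 to 1587. The summed level therefore covers only part of the mitochondrial genome.

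Genes next to the chain in metabolism were read from lists drawn up for the same purpose. Of 20 tested genes of the tricarboxylic acid cycle and pyruvate dehydrogenase, 4 rose and 0 fell, against 6.21% of all tested genes called higher and 6.9% lower, with a median fold change of 0.16 and 16 above 0. They were Cs (citrate synthase) at 0.26 (SE 0.08, edgeR adjusted p = 0.0346), Idh3g (isocitrate dehydrogenase) at 0.28 (SE 0.08, edgeR adjusted p = 0.0328), and Ogdh and Dld (oxoglutarate dehydrogenase) at 0.27 (SE 0.07, edgeR adjusted p = 0.0247) and 0.24 (SE 0.07, edgeR adjusted p = 0.037). Each passed in 1 to 3 of the 6 leave-one-out fits, with an edgeR adjusted p up to 0.106. limma-voom called 4 genes of the list and DESeq2 called 1. Of 20 electron carriers and ubiquinone synthesis genes, 2 rose and 1 fell, shares near that background. Coq5, a methyltransferase of ubiquinone synthesis, rose by 0.63 (SE 0.13, edgeR adjusted p = 0.00458) and passed in all 6 leave-one-out fits. Cycs, which encodes cytochrome c, had 9.85, 8.70 and 8.92 CPM in wild-type and 16.3, 11.7 and 11.2 CPM in Eda-/- glands, a fold change of 0.51 (SE 0.14, edgeR adjusted p = 0.0272). It did not pass without Eda-/- replicate 1 (edgeR adjusted p = 0.123), which held the highest value, nor without wild-type replicate 2 (0.087) or 3 (0.0582). Gpd2, the mitochondrial glycerol-3-phosphate dehydrogenase that feeds electrons to ubiquinone, fell by 0.46 on the log2 scale (SE 0.14, edgeR adjusted p = 0.0437) and passed in 2 of 6 leave-one-out fits.

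The known regulators of these genes showed no call. Of 18 tested regulators edgeR called 0, with 1 higher at an unadjusted p under 0.05. DESeq2 and limma-voom called 0, and the median fold change was 0.03. Calls here and for the import genes below stand beside 6.21% of all tested genes called higher and 6.9% lower. Having 0 calls in 18 genes does not set the regulators apart from that background. Nrf1 and Gabpa, which bind many promoters of nuclear-encoded subunits, had fold changes of -0.13 (SE 0.10) and -0.02 (SE 0.09). Esrra and Tfam, the latter a factor that transcribes and packs mitochondrial DNA, had -0.05 (SE 0.11) and -0.07 (SE 0.13). For Nrf1 all 3 Eda-/- libraries were below all 3 wild-type libraries, as in 16.2% of all tested genes. For Ppargc1b, Esrrg, Polrmt and Twnk all 3 were above, as in 15.9% of all tested genes. Ppargc1a, a coactivator of mitochondrial biogenesis, had 4 to 12 counts a library and was not tested. Of 23 tested genes of the outer membrane and protein import, edgeR called 0, with 4 higher and 1 lower at an unadjusted p under 0.05. DESeq2 and limma-voom called 0 as well. The median fold change was 0.19, and 20 were above 0.

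Markers of cell types differed between the groups as well. In these whole-gland samples, fewer cells of a type and less RNA per cell cannot be told apart. The counts below stand beside 6.21% of all tested genes called higher and 6.9% called lower. Of 9 acinar markers 2 rose and 1 fell, and their summed level was 1193 to 1231 CPM in wild-type and 1381 to 1437 CPM in Eda-/- glands. Most of that difference came from the 2 that rose, Bhlha15 (means 340 and 435 CPM) and Xbp1 (335 and 406 CPM). Only 5 of the 9 had a fold change above 0, and Rab26 fell. Of 10 macrophage markers 6 fell and 0 rose, with sums of 60.6 to 115 CPM and 29.2 to 36.5 CPM. Of 9 tested myoepithelial and basal markers 4 fell, and of 8 fibroblast markers 3 fell, with sums of 144 to 189 against 108 to 125 CPM and of 202 to 264 against 161 to 186 CPM. Duct epithelial markers had 0 calls of 7 by edgeR, DESeq2 and limma-voom (2 lower at an unadjusted p under 0.05), endothelial markers 1 higher and 2 lower of 9, Schwann cell markers 1 lower of 5, adipocyte markers 1 higher of 2, sebaceous-type markers 1 higher of 3 and lymphocyte markers 0 of 1 by edgeR (0 at an unadjusted p under 0.05; limma-voom called it higher). Of the skeletal muscle markers none had enough counts, and Ucp1, which marks brown fat, had 0 to 2 counts a library. No marker of these 11 lists was at 0 in all 6 libraries. The part of these differences in the change of the respiratory chain was not tested.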

How the data were processed

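Total RNA of 6 lacrimal gland samples was sequenced from directional, ribosomal RNA-depleted libraries, per the labels' protocols. The authors deposited 1 table of raw counts of reads per gene, made with bcl2fastq, Trimmomatic, STAR and featureCounts on GRCm38.p5 per the submitters' processing notes, which also name DESeq2. For versions, annotation, strand setting and reads with several matches, nothing is given in the sources used here, so overlapping genes and close copies are uncertain. Columns were matched to samples by title, and 0 were left out. Identifiers were named from GENCODE M21 (GRCm38), where 50462 of 50686 matched.

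Counts were analysed in R 4.3.3 with edgeR 4.0.16: filterByExpr (minimum count 10), TMM, robust quasi-likelihood fits with genotype alone, two-sided tests, Benjamini-Hochberg over 13178 genes, threshold 0.05. CPM values are TMM-scaled, and SE is the log2 fold change divided by the root of F. The common biological coefficient of variation was 0.103. The steps were tested on simulated counts. No pair of replicate libraries agreed within sampling noise (chi-square per degree of freedom 8.61 to 24.9). Shared words are 31-base words of exons.

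Members and gene lists were chosen with earlier results of these data known, and the arms of complex I and parts of complex V were assigned after values were seen. Lists were described by counts and medians; the 6 pathway lists and 11 cell type lists got no set test. Named genes were Eda, each passing member, the members with the highest and lowest fold change and level per length among those tested in each complex, the tissue isoform families, the 4 Sdh genes, up to 4 passing genes of a pathway list by p, and Ppargc1a, Nrf1, Gabpa, Esrra, Tfam, Cycs and Cs. Chosen after their values were seen were Uqcrb, Uqcrfs1, Ndufc1, Atp5a1, Atp5o, Ndufs1, Ndufs3, Ndufv2, the genes named beside alternatives, the mitochondrial genes, the acinar markers named and Ucp1. Alternatives were DESeq2 1.42.0, limma-voom (limma 3.58.1), 4 scalings, 2 filters, a fit that was not robust, a replicate block, a GC and length correction without and with that block, and each library left out in turn. Ndufaf2, Ndufaf4, Ppargc1b, Esrrg, Polrmt and Twnk were also named after their values were seen. Not every tested member is reported by name here.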

Additional observations from a re-analysis of the deposited data

How the results depend on the processing

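Over 18 alternatives, the rise of Sdhb and Uqcrq passed in each, and the median of the subunits exceeded that of all genes in each. With library totals, the median fold change of the subunits was -0.0921, 2 subunits were called higher and 7 lower (Atp5c1, Cox7a2l, Ndufc2, Sdha, Sdhc, Uqcr10 and Uqcrb), and 246 of all tested genes were called higher and 4365 lower. Of the 78 subunits 18 were above 0 there, against 73 in the reported fit. Among the genes whose single values were compared across the alternatives, which leave out many subunits, those that turned negative with library totals were Atp5b -0.0464, Atp5g1 -0.0897, Atp5g2 -0.0519, Atp5g3 -0.221, Atp5l -0.249, Cox4i1 -0.0235, Cox6a1 -0.167, Cox7a2 -0.0944, Cox8a -0.0357, Cs -0.016, Dld -0.0423, Idh3g -0.00352, Ndufa4 -0.0612, Ogdh -0.0107, Sdhc -0.263 and Sdhd -0.127. Subunits called higher numbered 4 with DESeq2 (595 of all genes lower), 4 with upper quartile scaling and 5 with a minimum count of 50. For these settings, and for the fits with the trend removed, the share of all genes called higher is not given here. Whether the smaller numbers are particular to the subunits can therefore not be read from them. With the trend on GC content and length removed, 7 subunits were called higher and 2 lower, with a median of 0.12; with the replicate block as well, 6 and 2, with a median of 0.121. Small fold changes also changed sign. Sdhc was -0.0137 with upper quartile scaling and -0.0127 with a minimum count of 50. With the trend removed, without and with the block, Sdhc was -0.0114 and -0.011, Atp5g3 -0.0215 and -0.0217, Cox6a1 -0.0020 and -0.0059, and Gabpa 0.0587 and 0.0634. With 1 library left out, the ranges that crossed 0 were Atp5l from -0.0281 to 0.0906, Cox6a1 from -0.070 to 0.215, Esrra from -0.124 to 0.0538, Gabpa from -0.0808 to 0.072, Sdha from -0.0948 to 0.00449 and Tfam from -0.14 to 0.013. The leave-one-out fits called 3 to 11 subunits higher and 0 to 1 lower, gave medians from 0.17 to 0.21, and called 561 to 677 of all genes higher and 599 to 834 lower. The cause was not tested for any of these shifts. Counts of calls are not like for like between fits with different numbers of libraries.

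Replicate numbers are shared between the groups, and the labels do not say what the numbers mark. Deviations of same-numbered libraries from their group means correlated at -0.04, 0.02 and -0.09. Not every library correlated best with its own number. With 3 libraries a group, these values cannot decide whether the numbers pair the samples. A replicate block gave 8 subunits higher, 1 lower and a median of 0.188, with 712 genes higher and 896 lower. Of the subunits that edgeR called in the reported fit, the smallest change was that of the most abundant, Atp5b, at 0.23. Other fits called subunits with smaller reported changes, Atp5a1 by DESeq2 and limma-voom and Atp5f1 with the trend removed. The 8 subunits with 0 to 4 counts in every library were too low to test.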

Other observations

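Padi2, which lies 8617 bases before Sdhb on the same strand, rose by 1.23 on the log2 scale (edgeR adjusted p = 0.000357). The nearest tested gene after Sdhb, Atp13a2, had a fold change of 0.07 (edgeR adjusted p = 0.633). Thrsp, 5136 bases after Ndufc2, had a fold change of -1.07 (edgeR adjusted p = 0.0693), and Alg8, 7818 bases before it, had 0.06. The nearest tested neighbours of Uqcrq, Aff4 and Gm10447, had 0.17 and 0.04 and did not pass. Each neighbour was taken by position among the tested genes, so untested genes may lie closer, and no relation to the subunit was tested.

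Of the 86 subunits, 22 shared 10% or more of their 31-base words with genes elsewhere and 36 shared under 1%. Among the 13 that passed, 1, Ndufb11, was in the first group.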
